A study of Homo sapiens with 4 samples.

Results

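Far from the annotated start and end of every protein-coding gene, RNA polymerase II (Pol II) peaks in SK-OV-3 cells still fell on exons of such genes. Many of these peaks lay near transcript starts inside the bounds of the gene. A peak was taken here when its midpoint lay in an exon of any transcript of a protein-coding gene of GENCODE, more than 5 kb from the start of every protein-coding gene and more than 1 kb from the end of every one. On chromosomes 1-22 and X, 201 of 3916 peaks of the shLacZ library and 691 of 14321 peaks of the shRRN3 library met this rule, 892 of 18237 in all. They are called far exonic peaks below, and peaks at the same distances in introns are called far intronic peaks.

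SK-OV-3 is an established human ovarian cancer line. Chromatin was immunoprecipitated with a Pol II antibody from cells that stably carried a lentiviral hairpin, either shLacZ, which is directed at a bacterial gene and served as the control, or shRRN3, which silences RRN3, known for its part in transcription by RNA polymerase I. Each hairpin gave 1 Pol II library and 1 input library, and only the peak lists of the Pol II libraries were analysed. The study asked whether RRN3 acts on the termination of Pol II transcription. The sources used here do not say which RRN3 hairpin the cells of this experiment carried, and a peak list holds no measure of the knockdown. With 1 library per hairpin no p-value was computed. All intervals are 95% intervals that cover counting error over peaks only, so a difference between the lists compares 2 libraries and not 2 conditions. The lists give no read depth, so the part of depth in the longer shRRN3 list cannot be told apart from the hairpin.

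Pol II enters a gene at its promoter, often pauses just inside it, then moves through exons and introns and slows again beyond the polyadenylation site before it leaves the template. Most exons inside a gene are short, whereas the last exon, which carries most of the 3′ untranslated region (UTR), is often long. Many genes also have alternative promoters, so the bound of a gene in an annotation is the outermost of several transcript starts and need not be the start that a given cell uses.

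Sequence was read at 2 sets of these peaks. The first is the coding sequence under peaks found in both libraries, printed because a coding base is the plainest case of a peak inside an exon. The 6 host genes are those with the highest lower score of the pair whose window lay in canonical coding sequence and in no annotated UTR. All sequences are from GRCh38 (hg38), 5′ to 3′ on the strand of the gene, and the capital ATG marks the start codon where the window opens on it. In 4 of the 6 windows the coding sequence began inside the peak, in exon 1 of the canonical transcript, and SLC3A2 was also in exon 1. CEP295, in exon 25 of 30, was the exception. The windows are DNMT1 at chr19:10194820-10194899 on the minus strand, SLC3A2 at chr11:62881174-62881447 on the plus strand, NFKBIZ at chr3:101849629-101849917 on the plus strand, CEP295 at chr11:93728681-93728821 on the plus strand, VPS72 at chr1:151190005-151190121 on the minus strand and COMMD1 at chr2:61905679-61905837 on the plus strand.
DNMT1: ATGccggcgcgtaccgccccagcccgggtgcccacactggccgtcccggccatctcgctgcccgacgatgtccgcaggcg
SLC3A2: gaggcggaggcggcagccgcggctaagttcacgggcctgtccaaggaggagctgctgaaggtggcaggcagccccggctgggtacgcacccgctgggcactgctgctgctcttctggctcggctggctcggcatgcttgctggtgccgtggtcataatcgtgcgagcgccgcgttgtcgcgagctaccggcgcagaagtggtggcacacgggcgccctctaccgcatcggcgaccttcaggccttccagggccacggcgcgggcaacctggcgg
NFKBIZ: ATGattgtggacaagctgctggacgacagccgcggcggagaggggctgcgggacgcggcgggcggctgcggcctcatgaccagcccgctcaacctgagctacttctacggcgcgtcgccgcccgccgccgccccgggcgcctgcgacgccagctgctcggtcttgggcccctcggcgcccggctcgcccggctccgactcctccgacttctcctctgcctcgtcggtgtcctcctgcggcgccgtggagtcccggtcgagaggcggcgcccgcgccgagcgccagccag
CEP295: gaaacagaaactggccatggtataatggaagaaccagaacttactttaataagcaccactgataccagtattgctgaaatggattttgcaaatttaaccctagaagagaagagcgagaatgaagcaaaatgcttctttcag
VPS72: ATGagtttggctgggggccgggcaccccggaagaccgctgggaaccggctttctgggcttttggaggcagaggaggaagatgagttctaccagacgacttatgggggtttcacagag
COMMD1: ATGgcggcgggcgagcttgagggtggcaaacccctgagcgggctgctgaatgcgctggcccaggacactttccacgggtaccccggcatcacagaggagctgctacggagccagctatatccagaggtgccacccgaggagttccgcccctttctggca
The GC content of the 5 first-exon windows ran from 59.0% (VPS72) to 76.2% (DNMT1), and that of the CEP295 exon was 37.6%.

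The second set is the 150 bases upstream of annotated transcript starts under peaks shared by both lists, for the 6 host genes with the highest lower score of the pair among those whose window lay in no exon and could be printed here, shown because these starts lie more than 5 kb inside the bound of the gene. Capitals mark the motifs searched. The TATA box was searched as TATAAA on the gene strand only. The GC box was searched on both strands, as GGGCGG on the gene strand and, for the opposite strand, as CCGCCC on the gene strand. The other motif was the CCAAT box, whose reverse complement on the gene strand reads ATTGG. The windows are H3-3B at chr17:75779781-75779930 on the minus strand, CCDC80 at chr3:112641301-112641450 and JPT1 at chr17:75154676-75154825, both also on the minus strand, EED at chr11:86244603-86244752 on the plus strand, RAB11A at chr15:65869306-65869455 on the plus strand and PRDX1 at chr1:45521939-45522088 on the minus strand.
H3-3B: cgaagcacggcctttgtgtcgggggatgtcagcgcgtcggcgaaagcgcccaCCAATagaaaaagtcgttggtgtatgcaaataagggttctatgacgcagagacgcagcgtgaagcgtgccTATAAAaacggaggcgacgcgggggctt
CCDC80: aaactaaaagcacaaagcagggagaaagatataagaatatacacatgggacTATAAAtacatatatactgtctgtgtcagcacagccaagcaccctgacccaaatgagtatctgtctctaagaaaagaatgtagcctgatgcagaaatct
JPT1: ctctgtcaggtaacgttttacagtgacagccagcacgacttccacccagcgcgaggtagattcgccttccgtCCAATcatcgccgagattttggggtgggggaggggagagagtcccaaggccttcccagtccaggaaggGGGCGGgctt
EED: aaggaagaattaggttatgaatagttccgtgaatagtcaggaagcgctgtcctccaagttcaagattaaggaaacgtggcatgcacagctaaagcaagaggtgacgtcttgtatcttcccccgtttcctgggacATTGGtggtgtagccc
RAB11A: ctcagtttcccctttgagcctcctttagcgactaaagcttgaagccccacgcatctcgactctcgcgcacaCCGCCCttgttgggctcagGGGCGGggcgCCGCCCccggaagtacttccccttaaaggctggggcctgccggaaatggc
PRDX1: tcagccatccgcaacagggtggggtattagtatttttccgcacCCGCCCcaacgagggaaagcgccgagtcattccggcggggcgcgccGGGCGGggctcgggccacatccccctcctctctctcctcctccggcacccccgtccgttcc
Over 185 complete transcript starts within 1 kb of far exonic peaks whose upstream window lay in no exon, 2.70% of the upstream windows held TATAAA (0.883 to 6.19), 49.7% a GC box (42.3 to 57.2) and 28.6% a CCAAT box (22.2 to 35.7). Upstream of the canonical starts of all 19970 protein-coding genes, windows in exons included, these shares were 5.40%, 52.6% and 26.5%, all inside those intervals. A match of letters is a description of the window and not a site.

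Each far exonic peak was put in the first of 4 classes it met. Peaks within 1 kb of a complete transcript start, one of the GENCODE basic set with an annotated 5′ end, came first, followed by peaks in the last or single exon of the canonical transcript, in any other exon of the canonical transcript, and in exons of other transcripts only. The far exonic sequence itself, 72.25 Mb, was classed in the same way at every 100 bases as the reference. Near a complete start lay 89 shLacZ peaks (44.3%, 37.3 to 51.4) and 261 shRRN3 peaks (37.8%, 34.1 to 41.5), against 4.11% of the sequence. Last exons held 56 (27.9%) and 170 (24.6%), against 31.3% of the sequence. Inner exons held 12 (5.97%, 3.12 to 10.2) and 74 (10.7%, 8.50 to 13.3), against 28.9%. The remaining 44 (21.9%) and 186 (26.9%) lay in exons of other transcripts only, against 35.7%. In both libraries peaks were thus over-represented near complete transcript starts and under-represented in inner exons.

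**Figure D1:**
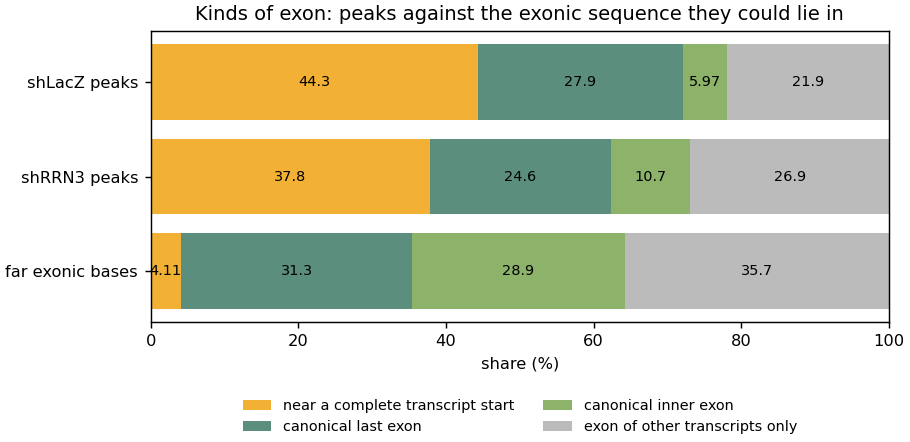
Stacked bars give the share (%) of far exonic peaks of each library, and of far exonic sequence, in the 4 kinds of exon. Sequence near a complete transcript start makes up 4.11% of the bottom bar but 44.3% of shLacZ and 37.8% of shRRN3 peaks.

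The share near any annotated transcript start, incomplete models included, was 61.2% (54.1 to 68.0) in shLacZ and 54.7% (50.9 to 58.5) in shRRN3, against 27.2% of the sequence and 15.1% and 15.7% of far intronic peaks. Within 1 kb of the start of the host gene's own canonical transcript lay 29.9% and 26.1%, against 1.26% of the sequence. In shLacZ these were 60 of the 89 peaks near a complete start, so that class is not made up of secondary starts only. Starts of noncoding genes were within 1 kb of 11.9% and 11.1% of the peaks and of 2.97% of the sequence. In both libraries the peaks near a complete start had the base composition of CpG-rich promoters, with a median GC content over 200 bases of 65.0% and 63.5% and a CpG ratio, observed over expected, of 0.804 and 0.790. Far exonic sequence near the same kind of start had medians of 53.0% and 0.369.

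The canonical transcript was hit in its first exon more often than its share of sequence. Of the peaks in canonical exons, 107 in shLacZ and 349 in shRRN3, 33.6% (24.8 to 43.4) and 27.5% (22.9 to 32.5) lay in exon 1 of several, which made up 1.13% of far canonical exonic sequence. Internal exons held 13.1% and 23.8% against 48.0%, and last exons 52.3% and 47.6% against 50.7%. By coding state, 31.8% and 23.8% were in 5′ UTR (1.68% of sequence), 24.3% and 33.2% in coding sequence (55.4%) and 43.9% and 43.0% in 3′ UTR (42.9%). These shares mix peaks near complete transcript starts with the rest. Over 1 kb from complete starts, 69.1% (56.7 to 79.8) of the 68 shLacZ and 61.5% (55.1 to 67.6) of the 244 shRRN3 peaks in canonical exons lay in 3′ UTR, against 44.02% of the sequence. Last exons then held 82.4% (71.2 to 90.5) and 68.0% (61.8 to 73.8) against 51.9%, and coding sequence 27.9% (17.7 to 40.1) and 37.7% (31.6 to 44.1) against 55.3%. Away from starts 3′ UTR was thus over-represented and coding sequence under-represented in both libraries.

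Peak density put the classes on 1 scale. Far exonic sequence held 2.78 shLacZ peaks per Mb and far intronic sequence (1109 Mb) 0.777 per Mb, a ratio of 3.58 (3.05 to 4.18). In shRRN3 the densities were 9.56 and 3.49 per Mb, a ratio of 2.74 (2.52 to 2.97). Over 1 kb from complete starts the exonic excess was smaller, 2.28-fold (1.86 to 2.79) and 1.94-fold (1.75 to 2.14), and it differed by class. Last exons held 2.48 (1.87 to 3.22) and 7.52 (6.43 to 8.74) peaks per Mb, and exons of other transcripts 1.70 (1.24 to 2.29) and 7.20 (6.20 to 8.32). Inner exons held 0.575 (0.297 to 1.00) and 3.55 (2.79 to 4.46), intervals that include the densities of far introns away from starts, 0.708 and 3.20. Near complete starts the exonic densities were 29.9 (24.1 to 36.9) and 87.8 (77.5 to 99.2) per Mb. At these counts inner exons could not be told from introns.

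**Figure D2:**
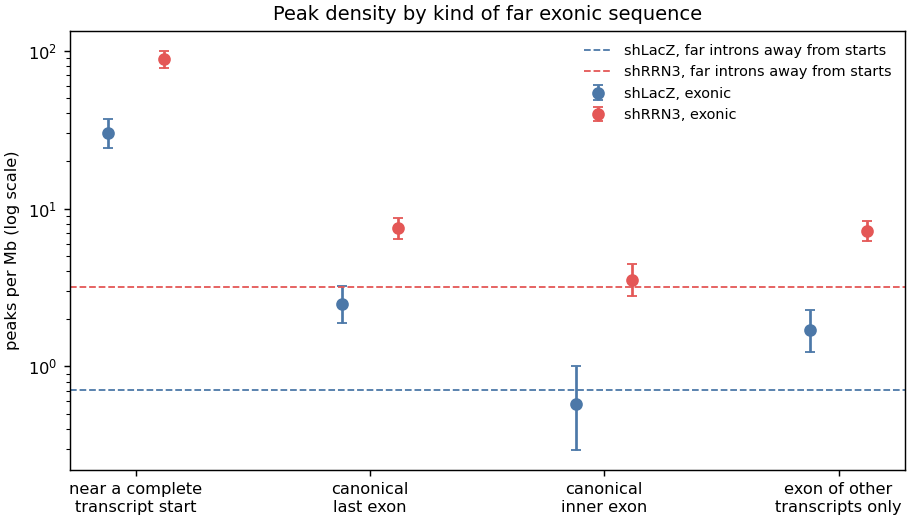
Points give far exonic peaks per Mb of each kind of exonic sequence on a log axis, bars are exact 95% intervals, and dashed lines are far introns over 1 kb from complete starts in each library. Inner exons sit at the intron lines (0.575 against 0.708 and 3.55 against 3.20), and the other 3 kinds lie above them.

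The median length of the canonical exon that held a peak was 1811 bases in shLacZ and 1080 in shRRN3, against 1837 for the sequence. Among internal exons the medians were 150.5 and 158 bases against 162, and among last exons 4016 and 4652 against 4584. Exons over 3000 bases held 35.5% (26.5 to 45.3) and 38.4% (33.3 to 43.7) of peaks in canonical exons, against 40.0% of the sequence. Over 1 kb from complete starts the median length was 3174 bases in shLacZ and 3460 in shRRN3 against 1956, and exons over 3000 bases held 54.4% (41.9 to 66.6) and 54.9% (48.4 to 61.3) against 40.8%. Long exons thus held more than their share of the peaks away from starts, while lengths within internal exons and within last exons stayed near those of the sequence. The longest exons were last exons with low peaks. SMAD2, a transducer of TGF-beta signals, has a last exon of 32994 bases with a shRRN3 peak of score 50.97 and no overlapping shLacZ peak. In the 22753-base last exon of SH3TC2, a shLacZ peak of score 53.64 was overlapped by a shRRN3 peak of 72.87, and a second shRRN3 peak scored 93.09. The last exon of SRGAP1 (19923 bases), a GTPase-activating protein of the Slit pathway, held a shLacZ peak of 54.68, that of the zinc finger gene ZNF431 (13431 bases) one of 59.40, and neither was overlapped. ZNF891 (17246 bases) held 1 shLacZ and 2 shRRN3 peaks, of 54.76, 62.51 and 50.57, that did not overlap between lists. SESTD1 (8351 bases) had peaks in both, of 65.31 and 110.92.

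Counted per peak, so that a host with several peaks counts several times, the median host gene length was 63030 bases in both libraries. For far exonic sequence it was 77147. The shared value is the length of NABP1 (63.03 kb), which held 5 shLacZ and 9 shRRN3 peaks. The median peak lay 57.8% of the way along its host gene in shLacZ and 62.1% in shRRN3, against 77.8% for the sequence, and the final 20% of the gene held 30.8% (24.5 to 37.7) and 33.0% (29.5 to 36.6) of peaks against 47.0%. Away from complete starts this shift was gone, with medians of 76.3% and 78.8% against 78.8%. Peaks near complete starts had medians of 42.8% and 41.9%.

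**Figure D3:**
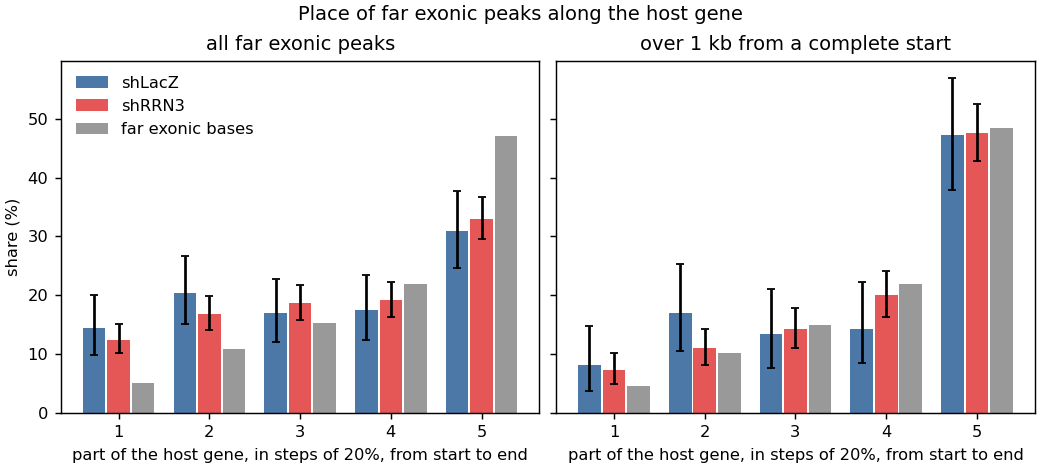
Bars give the share (%) of far exonic peaks in 5 equal parts of the host gene, from start to end, for all peaks (left) and for those over 1 kb from a complete start (right). Error bars are exact 95% intervals and grey bars are far exonic sequence, of which 47.0% lies in the last bin of the left panel against 30.8% and 33.0% of peaks.

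Peaks in last exons were examined for their place at transcript ends, since the study concerned termination. In shLacZ, 30 of 56 (53.6%, 39.7 to 67.0) lay within 0.5 kb of an annotated transcript end, against 34.1% of last-exon sequence. Ends of every transcript of any protein-coding gene were counted here, incomplete models included. In shRRN3 it was 53 of 170 (31.2%, 24.3 to 38.7). The shRRN3 share was lower, a difference of -22.4 points (-36.4 to -7.59), and with only the highest peak of each host gene it was 34.1% of 138 against 53.1% of 49, a difference of -19.0 points (-34.2 to -3.03). The difference was -27.6 points (-45.4 to -4.90) with the shRRN3 list reduced to the length of the other. At a stricter score it was -5.91 points (-28.7 to 14.3), with 28 shRRN3 and 8 shLacZ peaks near ends. That interval includes the -22.4 points and also values of the other sign. It therefore cannot tell whether the difference holds for higher-scoring peaks. Up to 3 kb past a complete end of a shorter host transcript lay 44.6% (31.3 to 58.5) and 37.1% (29.8 to 44.8), against 32.4% of the sequence. By this measure the lists could not be told apart, with a difference of -7.58 points (-22.25 to 6.77). The hexamer AATAAA, the most common polyadenylation signal, stood on the gene strand within 300 bases centred on the peak in 17.9% (8.91 to 30.4) and 20.6% (14.8 to 27.4) of them, against 19.1% of last-exon sequence. With the variant ATTAAA counted as well, the shares were 33.9% (21.8 to 47.8) in shLacZ and 40.0% (32.6 to 47.8) in shRRN3, against 30.2% of the sequence. The shRRN3 interval lay above the sequence for the pair of hexamers, and the other intervals included it.

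All far exonic peaks together were 5.13% of the shLacZ list and 4.83% of the shRRN3 list, which is -0.308 points apart (-1.12 to 0.435). With the starts and ends of every transcript excluded in place of those of genes, 19 and 113 peaks were left and the difference turned to 0.304 points (0.00194 to 0.540). The ratio of their numbers, shRRN3 to shLacZ, was 3.44 (2.93 to 4.04), against 3.66 for all peaks and 4.49 (4.17 to 4.84) for far intronic peaks. By class it was 2.93 (2.30 to 3.77) near complete starts, 3.04 (2.23 to 4.18) in last exons, 4.23 (3.03 to 6.01) in exons of other transcripts and 6.17 (3.33 to 12.5) in inner exons. As a share of far exonic peaks, inner exons were 4.74 points higher in shRRN3 (0.0702 to 8.31). With the shRRN3 list cut back to its highest scores, as many peaks as shLacZ has, that difference became 0.587 points (-4.42 to 5.79). At a stricter score it was 4.48 points (-1.87 to 8.48), close to the first value but with an interval that spans both signs. Fewer peaks were left there, 34 in shRRN3 and 4 in shLacZ inner exons, so its direction could not be settled.

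Recurrence between the libraries separated the classes. Of the shLacZ far exonic peaks 116 of 201 (57.7%, 50.6 to 64.6) were overlapped by at least 1 base of a shRRN3 peak, against 66.2% of all shLacZ peaks. Of the shRRN3 peaks 105 of 691 (15.2%, 12.6 to 18.1) were overlapped by a shLacZ peak, against 16.9% of all. Both shares were thus below the backgrounds, though the interval of the shRRN3 share includes its own. Near complete starts 83.1% and 25.3% were overlapped, and away from them 37.5% and 9.07%, differences of 45.6 points (32.7 to 56.2) and 16.2 points (10.4 to 22.3). Far intronic peaks away from starts were overlapped in 44.1% and 9.26%, which differed from the exonic peaks by -6.59 points (-15.7 to 3.28) and -0.189 points (-2.76 to 3.03). Away from starts, exonic peaks therefore recurred no more often than intronic ones within counting error.

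Overlapped peaks were the higher and wider ones. The deposited score was at least 50 in both lists, and how it was computed is not given in the sources used here, so it ranks peaks within a list and is not a measure of occupancy across lists. The median score of the shLacZ peaks was 65.2, within a range of 50.2 to 532.9, and that of the shRRN3 peaks 70.4, within 50.1 to 2855. Overlapped peaks had medians of 79.3 and 134.4, and those without overlap 57.7 and 67.4. Widths were 281 and 393 bases at the median, against 227 and 340 for far intronic peaks and 477 and 612 for peaks within 1 kb of gene starts. By class the median scores were 76.8 and 86.4 near complete starts, 64.0 and 66.8 in last exons, 57.3 and 65.2 in inner exons and 64.0 and 66.8 in exons of other transcripts. The median far exonic peak stood at the 49.4 percentile of all scores of its list in shLacZ and at 45.4 in shRRN3.

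**Figure D4:**
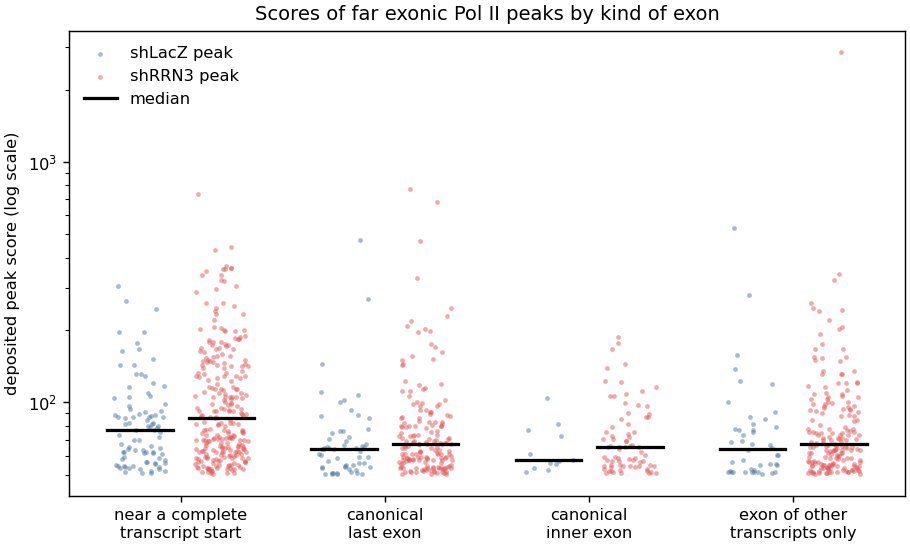
Each point is a far exonic peak, plotted by its kind of exon and its deposited score on a log axis, and black lines are medians. Medians run from 57.3 (shLacZ, inner exons) to 86.4 (shRRN3, near a complete start), and the highest point is the shRRN3 peak of 2855.23 in VMP1.

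The peaks fell in 180 host genes in shLacZ and 574 in shRRN3, of 15490 genes with far exonic sequence. Of these, 99 hosted peaks in both, which is 55.0% of the shLacZ hosts and 17.2% of the shRRN3 hosts. Most hosts had 1 peak (168 and 489), and 4 and 20 had 3 or more. The gene start had a peak of the same library within 1 kb for 23.4% of the shLacZ and 45.9% of the shRRN3 far exonic peaks. For far intronic peaks, also counted per peak, the shares were 12.2% and 37.4%. Counted per gene, 7.58% and 23.8% of all protein-coding genes had such a peak. When the canonical start was taken in place of the gene bound the shares of far exonic peaks were 50.7% and 69.6%, and 29.9% and 26.1% of the far exonic peaks, given above, themselves lay at that start. Away from complete starts the canonical start of the host had a peak for 31.2% and 61.4% of far exonic peaks, against 20.2% and 46.5% of far intronic ones, differences of 11.1 points (2.69 to 20.5) and 14.9 points (9.91 to 19.6). Exonic peaks away from starts thus lay more often than intronic peaks in genes with Pol II at the start.

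The highest far exonic peaks of the shLacZ list were at complete transcript starts and at the ends of VMP1 and EEF1A1. VMP1 encodes an endoplasmic reticulum protein of autophagy, and its 3′ end overlaps the primary transcript of the microRNA miR-21. It held the top peak of both lists, chr17:59838130-59839002 in shLacZ with a score of 532.94, and chr17:59837116-59841797 in shRRN3, 4682 bases wide, with a score of 2855.23. The single shRRN3 peak covered 5 shLacZ peaks, of 532.94, 278.51, 268.21, 138.10 and 64.50, in the last exon and in an overlapping exon of another transcript, at 96.8% to 98.9% of the gene. Another pair lay at 56.6% of VMP1, of 73.37 in shLacZ and 258.31 in shRRN3. The VMP1 start had a peak within 1 kb in shRRN3 and none in shLacZ.

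EEF1A1, the elongation factor that brings aminoacyl-tRNA to the ribosome, had a shLacZ peak of 474.29 in its last exon (chr6:73515897-73517522, 3′ UTR), overlapped by a shRRN3 peak of 2508.50 whose own midpoint did not meet the rule. ACTG1, cytoplasmic gamma actin, had a shLacZ peak of 305.12 at 287 bases from a complete start, overlapped by a shRRN3 peak of 509.28. H3-3B, a gene for the replication-independent histone H3.3, had peaks of 263.78 and 738.14 over the start whose upstream sequence is printed above. For EEF1A1, ACTG1, H3-3B, TPT1 and ribosomal protein genes, which have near-identical processed copies elsewhere in the genome, the assignment of reads is uncertain because the treatment of reads with several matches is not given in the sources used here.

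The rest of the 10 highest shLacZ peaks were at complete starts, none more than 119 bases away. They were in RND3 with 243.49 in shLacZ and 362.40 in shRRN3, in CCDC80 with 196.03 and 296.41, in JPT1 with 195.97 and 321.87, and in POR, the reductase that supplies electrons to cytochromes P450, with 177.27 and 140.98.

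In the shRRN3 list the top 10 held 3 further 3′ UTR peaks. GGCX, the vitamin K-dependent gamma-glutamyl carboxylase, had a 3190-base peak of 774.28 in its last exon (chr2:85545686-85548875), where shLacZ had 3 far exonic peaks, of 92.53, 76.30 and 64.09, and a higher peak of 157.99 whose midpoint did not meet the rule. SRSF3, a serine/arginine-rich splicing factor, had a 3094-base peak of 682.57 (chr6:36602819-36605912) over a shLacZ peak of 66.05 that was 380 bases wide. TPT1, the translationally controlled tumor protein, had 467.26 over 50.52. In GGCX and SRSF3 1 wide shRRN3 peak thus stood over narrower far exonic shLacZ peaks, of 252 to 380 bases.

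The remaining top shRRN3 peaks were at complete starts. EED, a core subunit of Polycomb repressive complex 2, had 442.31 in shRRN3 and 166.63 in shLacZ over exon 1 of its canonical transcript, at 56.3% and 56.5% of the annotated gene. DHRS2, a short-chain dehydrogenase, had 368.40 and 143.45 in its exon 1. CAPRIN2, an RNA-binding protein, had 431.91 in shRRN3 at 12 bases from a complete start, and ANXA4, a calcium-dependent phospholipid-binding annexin, had 362.64 at 38 bases. Neither CAPRIN2 nor ANXA4 had an overlapping shLacZ peak.

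Other high shRRN3 peaks with no shLacZ overlap were in FADS1, a fatty acid desaturase, with 353.01 at 177 bases from a complete start, and PRSS12, a serine protease, with 329.52 in the coding part of its last exon. In all, 18 shLacZ and 75 shRRN3 far exonic peaks lay in the span of a second protein-coding gene, so their host is uncertain. In shLacZ the highest peaks without overlap were lower. They were in OCIAD1 (143.00) and TMCC1 (104.01) near complete starts, in the last exons of CNOT7, a deadenylase of the CCR4-NOT complex (110.77), and of SLC9A3, a sodium/proton exchanger (100.18), and in a non-canonical exon of PECR, a peroxisomal reductase (100.20).

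**Figure D5:**
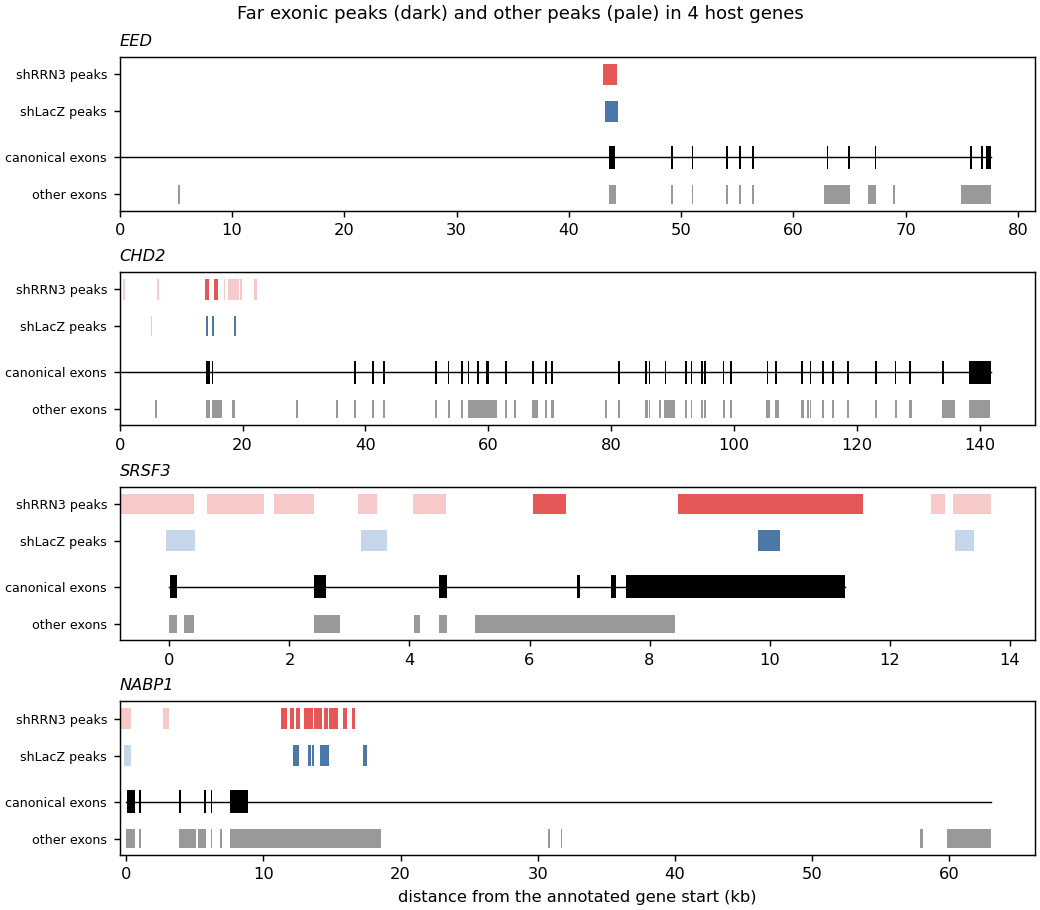
Maps of 4 host genes, drawn to scale in kb from the annotated gene start, show canonical exons (black), exons of other transcripts (grey) and the peaks of each library (dark where far exonic, pale where not). Very narrow features have a minimum width. The far exonic peaks of EED stand at the first canonical exon and those of CHD2 at or within 5 kb of it, the widest of SRSF3 on the long last exon and those of NABP1 in 1 long exon of another transcript.

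Some genes held runs of peaks. NABP1, which encodes a single-stranded DNA-binding protein, had 5 shLacZ peaks, scored 78.99 to 157.35, and 9 shRRN3 peaks, scored 56.06 to 240.83, all in 1 exon of 11064 bases of a non-canonical transcript, at 18.2% to 27.6% of the gene. All lay past the end of the canonical transcript, which is 8.876 kb from the gene start, at 11.25 to 17.55 kb. CHD2, a chromatin remodeller, had 3 shLacZ peaks of 63.52, 56.32 and 56.03, all within 1 kb of complete starts. In shRRN3 it had 2, of 161.19 and 167.16. PURA, whose canonical transcript is a single exon of 11511 bases, had 4 shRRN3 peaks of 143.60, 92.57, 81.19 and 58.37. RAP1B, a small GTPase, had 4 shRRN3 peaks of 53.02 to 82.56 in its 12622-base last exon. No shLacZ far exonic peak lay in PURA or RAP1B. TGIF1, a homeobox repressor, had 4 shRRN3 peaks of 51.34 to 155.00, and 1 shLacZ peak of 65.93 overlapped by 1 of them. In MCMDC2, a gene of the MCM domain family, 3 shRRN3 peaks of 227.76, 100.19 and 98.09 lay in the last exon, the highest over a shLacZ peak of 88.72. Peaks of 1 gene share their source and are not independent of each other.

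Among gene lists, ribosomal proteins had the highest share of hosts. Of 30 cytosolic ribosomal protein genes with far exonic sequence, 5 (16.7%, 5.64 to 34.7) hosted a peak in shLacZ and 8 (26.7%, 12.3 to 45.9) in shRRN3, against 1.16% and 3.71% of all eligible genes. RPL10, RPL27A, RPL37 and RPL6 did so in both libraries, with scores of 120.01 and 177.54 for RPL10, 85.97 and 197.18 for RPL27A, 74.56 and 247.39 for RPL37, and 104.96 and 336.83 for RPL6. The peaks of RPL10 and RPL6 were near complete starts, and those of RPL27A and RPL37 in long annotated last exons.

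Of 25 actin and adhesion genes, 4 (16%, 4.54 to 36.1) hosted a peak in shLacZ (ACTB, ACTG1, THBS1 and TPM1) and 3 (12%, 2.55 to 31.2) in shRRN3 (ACTB, THBS1 and VCL). Over all eligible genes the shares were 1.16% and 3.71%, the first below the shLacZ interval and the second inside the shRRN3 interval. THBS1, the matrix glycoprotein thrombospondin 1, had 2 shLacZ peaks, of 87.71 in its last exon and 51.46 in exon 14, and 3 shRRN3 peaks of 151.87, 72.31 and 57.69, and FSIP1 overlaps the same span. Genes with symbols of C2H2 zinc finger families hosted peaks in 10 (1.78%, 0.857 to 3.25) and 31 (5.52%, 3.78 to 7.74) of 562, although 1 symbol so matched, ZFP36L1, is a CCCH protein. The shLacZ interval includes the 1.16% of all eligible genes, and the shRRN3 interval begins just above their 3.71%. ZFP36L1 is among the 31 shRRN3 hosts and the share without it was not computed, so no excess can be read from this list. ZNF699, with 107.36 in shLacZ and 51.38 in shRRN3 in its coding last exon, was overlapped in both libraries. Genes with a coding exon over 3000 bases hosted peaks in 2 (0.775%, 0.0940 to 2.77) and 16 (6.20%, 3.59 to 9.88) of 258, against the same 1.16% and 3.71%, which both intervals include. RESF1 had shRRN3 peaks of 78.58 and 50.86 in its 5080-base coding exon, while those of DST, POLQ, SPEN and CEP295 in canonical inner exons lay in exons of 99 to 144 bases.

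No gene of 2 lists close to the subject of the study hosted a far exonic peak in either library. They were 33 core autophagy genes, where a count of 0 allows up to 10.6%, and 22 genes of 3′ end processing and termination, where it allows up to 15.4%. Over all eligible genes 1.16% hosted a peak in shLacZ and 3.71% in shRRN3, both below these limits, so lists this short cannot be told from the rest. VMP1, described above, was not among the listed autophagy genes. Of 8 eligible genes that the study followed, only BMI1, a Polycomb protein, had one, a shRRN3 peak of score 54.55 at chr10:22328020-22328238 in a non-canonical exon, within the span shared with the readthrough gene COMMD3-BMI1 and with no shLacZ overlap.

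At the 5 kb limit of the rule the numbers did not jump. Exonic peaks 4 to 5 kb from a start, left out by the rule, numbered 15 in shLacZ and 67 in shRRN3, with median scores of 94.3 and 81.0. Those 5 to 6 kb from a start numbered 18 and 59, with medians of 62.4 and 74.2.

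The line was checked against marker genes by peaks at gene starts. Of 11 epithelial ovarian markers 1 had a start peak in shLacZ (PAX8) and 4 in shRRN3 (PAX8, EPCAM, KRT8 and KRT18), and ERBB2, which this line is known to amplify, had none in either. Of 3 mesenchymal markers VIM and FN1 had one in shRRN3, and of 13 markers of fibroblasts, blood, endothelium and hepatocytes none did in either list. Gene starts here are the outermost annotated bounds, which need not be the starts that this line uses. Absence from a peak list also says little of expression at an unknown depth.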

How the data were processed

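Pol II ChIP-seq peak lists of 1 shLacZ and 1 shRRN3 library were used, grouped by title, and neither input library was used here. The authors deposited a position and a score for each peak, and peak names carry the caller's name, MACS. The genome build is hg38 per the submitters' processing notes. The aligner, the caller's version and threshold, the treatment of reads with several matches, the definition of the score and how the inputs were used are not given in the sources used here, and the depth of each library is unknown. Peaks were placed on GENCODE release 44 by midpoint with Python 3.11.15 and pandas 2.3.3, and the territory was sampled every 100 bases. Shares have exact Clopper-Pearson intervals, differences Newcombe intervals and ratios exact conditional intervals (scipy 1.17.1), at 95%. No p-value was computed. The code for the rule was checked on random positions inside and outside the eligible sequence, against a direct search of the same annotation.

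The members and lists were chosen with earlier results of these data known. Named genes were the 10 highest-scoring members per list, the 5 highest without overlap, hosts with at least 3 members (at most the 10 with most), the 5 longest canonical exons, and members of the gene lists, of which examples are printed. The 4 classes, the upstream windows, the complete and canonical start alternatives, the class alternatives and the count per host gene in last exons were chosen after seeing the data. Alternatives covered score, list length, start, end and exon definitions, distance, peak position, dense bins and overlap. 1 base in common counted as overlap. Some named members are not reported here.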

Additional observations from a re-analysis of the deposited data

How the results depend on the processing

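Of 96 alternative values for 14 results, 63 kept their direction and stayed within the error of the reported value. Some of the 63 could not move. Reducing the shRRN3 list leaves the shLacZ canonical share, density ratio, host start peaks and share near any start as they were. No paired analysis was possible because there was 1 Pol II library per hairpin. When starts and ends of every transcript were used, members fell to 19 and 113, the difference in their share of all peaks reversed to 0.304 points (0.00194 to 0.540), the shRRN3 to shLacZ ratio was 5.95, exonic over intronic density 1.40 (0.834 to 2.20) in shLacZ and 1.94 in shRRN3, the canonical share in shRRN3 76.1%, its overlap 9.73%, and host start peaks 47.4% and 53.1%. With the shRRN3 list reduced to the length of the shLacZ list, the ratio of members fell to 0.910 (0.741 to 1.12). Equal list lengths largely set that ratio, and its interval includes equal numbers. The canonical share in shRRN3 was then 41.5%, overlap 38.8% and 35.5%, host start peaks in shRRN3 21.3%, peaks near any start 70.5%, the density ratio 3.81 and the inner-exon difference 0.587 points. At the stricter score of 65.59 the canonical share in shLacZ was 44.4%, its overlap 69.7%, its density ratio 5.06, host start peaks 14.1% and 36.6%, shRRN3 peaks near any start 59.4%, the inner-exon difference 4.48 points and the difference at ends of last exons -5.91 points. Exons of protein-coding transcripts only gave canonical shares of 64.1% and 64.3%. Overlap of 50% of both peaks gave 31.8% and 8.54%. A 50% rule for peak position gave a shRRN3 density ratio of 2.30. Complete starts only gave 44.3% and 37.8% near a start, and canonical starts gave host start peaks of 50.7% and 69.6%. Apart from the fewer peaks or exons that each alternative leaves by construction, the causes of these moves were not tested. The unknown read depth and 1 library per hairpin limit every comparison between the lists.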
